A study of Mus musculus with 17 samples.

Results

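The 10 genes described here were grouped as growth arrest and stress kinase genes: Cdkn1a, the Polo-like kinases Plk2 and Plk3, Gadd45a, Gadd45b, Gadd45g, Mdm2, Ccng1, Sesn1 and Myc. Not all are brakes on the cell cycle or kinases. Mdm2 encodes a ubiquitin ligase of p53, and Myc a growth factor-responsive transcription factor. The 10 genes were chosen by gene symbol, with earlier results of these data known. All 10 were found among the 21982 genes of the deposited count table. Messenger RNA of brown adipose tissue, the heat-producing fat, was sequenced from 17 mice on a C57BL/6 background, 1 library per mouse. Wild types (Noc+/+) and their littermates lacking Nocturnin (Noc-/-, gene Noct) spent 4 h alone and unfed in cages kept at either 22 °C or 6 °C. The groups were 4 wild types at 22 °C (3 female and 1 male), 5 wild types at 6 °C (4 female and 1 male), 4 knockouts at 22 °C (1 female and 3 male) and 4 knockouts at 6 °C (1 female and 3 male). Labelled ages ran from 11.14 to 23.57 with no unit, while the series text gives 10 to 20 weeks. No sequencing batch is labelled, and no source used here states which stretch of the gene the Noc-/- allele lacks.

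The transcription factor p53 is held at a low level by the ubiquitin ligase Mdm2, and it accumulates after DNA damage and other stress. It then activates genes that halt the cell cycle, above all Cdkn1a, and genes that repair, adapt or kill the cell, while Mdm2, itself a target, closes the loop. Cdkn1a, the Gadd45 genes and Plk3 also respond to signals that need no p53, such as glucocorticoids, cytokines and stress kinases, and in mouse brown fat Gadd45g has been described as a cold-induced activator of p38 kinase. Brown adipocytes themselves are mature cells that have left the cell cycle.

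Across the libraries, totals ran from 18410748 to 47598200 counts, and mitochondrially encoded genes took 43.4 to 57.3% of the counts. Noct ran from 91.5 to 176 CPM (edgeR's depth-scaled counts, on library sizes adjusted by the TMM method) in wild types at 22 °C and from 238 to 457 CPM in the cold. The knockouts held 3.37 to 34.2 CPM at 22 °C, and in the cold 18.2 to 27.2 CPM. Every knockout library thus lay below every wild-type library. The summed level of 9 brown adipocyte markers, Ucp1 included, was 6222 to 8705 CPM in the libraries at 22 °C and 8450 to 10541 CPM at 6 °C. Most of that sum is Ucp1, which rose, and the 9 markers did not move as 1. In wild types 3 rose and 3 fell, and in knockouts 2 rose and 1 fell. Among all tested genes 14.3% rose and 13.3% fell in wild types, and 11.6% and 10.0% in knockouts. The brown fat transcription factor gene Ebf2 fell in both (-0.98 ± 0.15 and -0.97 ± 0.16) and Prdm16, another, in wild types (-0.87 ± 0.19). In knockouts Prdm16 did not pass (0.26). Pparg, also a transcription factor gene of the list, rose in wild types (0.47) and did not pass in knockouts (-0.01). Wild-type 22 °C replicate 2 stood apart from its group, with the cold-responsive gene Ppargc1a at 493 CPM against a group median of 116 CPM, so values of the members and counts of the lists that move without it are given beside them.

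The 10 genes differed widely in level, compared here per gene length as RPKM, the authors' deposited values per gene length and library total. At 22 °C the cyclin gene Ccng1 was the highest in both genotypes, at 65.0 ± 4.89 RPKM in wild types (SD, n = 4) and 69.1 ± 8.0 in knockouts (n = 4). Cdkn1a followed at 36.2 ± 15.7 and 32.7 ± 13 RPKM, and its range overlapped that of Gadd45g (21.3 ± 3.01 and 10.9 ± 5.21 RPKM). At 6 °C the order at the top was exchanged, with every library holding more Cdkn1a (92.3 to 125 RPKM over both genotypes) than any library held Ccng1 (54.2 to 74.0 RPKM). Mdm2 lay between 3.69 and 7.55 RPKM in all 17 libraries. Plk2 and Sesn1 stayed between 0.90 and 3.37 RPKM. Plk3 stood at 0.30 to 5.22 RPKM at 22 °C, where its range overlapped that of Sesn1 in wild types and that of Plk2 in both genotypes, and at 4.59 to 26.3 RPKM at 6 °C. Gadd45a, Gadd45b and Myc were the lowest, at medians of 0.57, 0.51 and 0.60 RPKM over the 17 libraries, with ranges that overlapped one another in 3 of the 4 groups. In wild types at 22 °C the range of Gadd45b (0.29 to 0.47 RPKM) overlapped that of Myc (0.46 to 0.73 RPKM) but not that of Gadd45a (0.62 to 1.07 RPKM). These 3 genes rest on 9 to 131 counts per library, so their values carry more counting error than those of Cdkn1a (1050 to 7586 counts) or Ccng1 (3618 to 10280 counts).

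**Figure D1:**
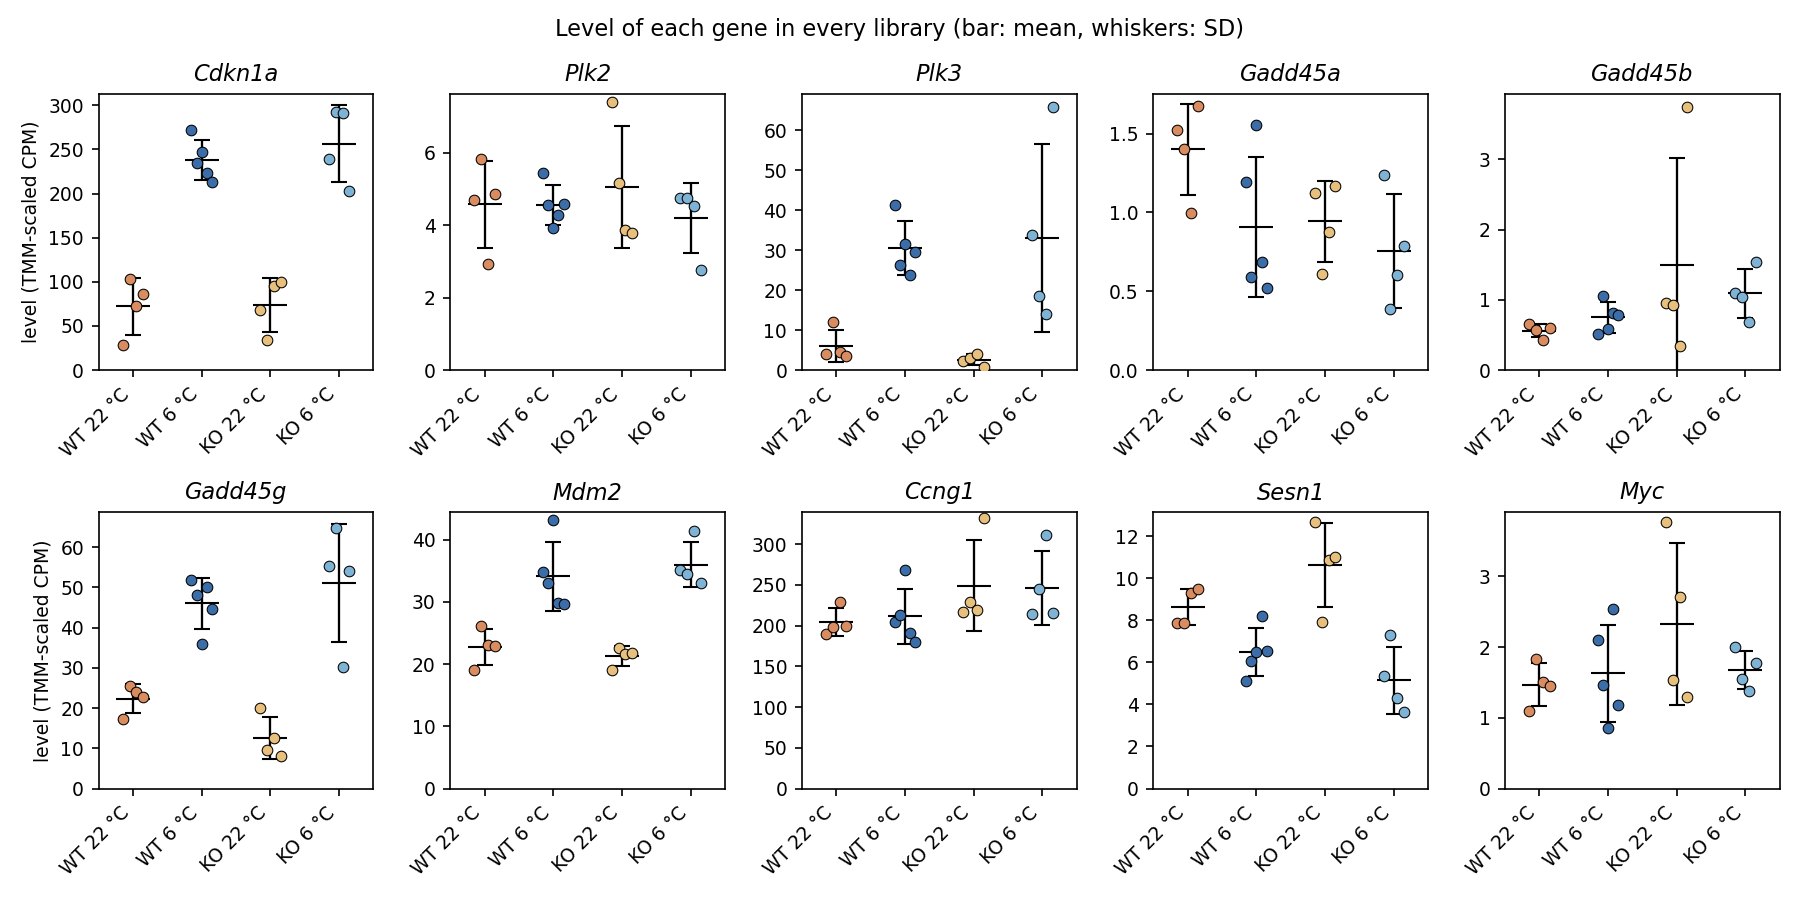
Level of each of the 10 genes in every library, in TMM-scaled CPM on axes that start at 0, for wild types (WT) and Noct knockouts (KO) at 22 °C and 6 °C. Points are mice, horizontal bars are means and whiskers are SD, with the whisker of Gadd45b in knockouts at 22 °C ending at the axis. Cdkn1a, Plk3, Gadd45g and Mdm2 stand higher at 6 °C in both genotypes with no overlap.

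The proximal promoters of the genes that rose most are shown because these genes rose together in both genotypes, as described further on. Each is the 250 bases before a RefSeq start, build GRCm38.p6, from the RefSeq promoter table, in which 9 of the 10 genes were matched. Capitals mark the motifs found. The Plk3 window (chr4:117133964-117134213, minus strand) holds the CRE half-site TGACG, the core of the element read by the cAMP-responsive factors CREB and CREM, at 132 to 128 and at 63 to 59 bases upstream. The Gadd45g window (chr13:51846425-51846674, plus strand) holds the E-box CACGTG at 142 to 137 bases and the TATA box TATAAA at 27 to 22 bases upstream. Cdkn1a has 2 RefSeq starts. The window of the upstream one (chr17:29090729-29090978, plus strand) holds a pair of p53 half-sites, at 73 to 64 and at 51 to 42 bases upstream, and that of the downstream one held none of the motifs searched.
Plk3: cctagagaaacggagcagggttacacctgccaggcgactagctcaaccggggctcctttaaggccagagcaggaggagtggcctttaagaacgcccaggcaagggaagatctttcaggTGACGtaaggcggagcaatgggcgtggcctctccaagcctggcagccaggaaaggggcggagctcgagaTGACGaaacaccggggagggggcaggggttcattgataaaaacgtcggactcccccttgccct
Gadd45g: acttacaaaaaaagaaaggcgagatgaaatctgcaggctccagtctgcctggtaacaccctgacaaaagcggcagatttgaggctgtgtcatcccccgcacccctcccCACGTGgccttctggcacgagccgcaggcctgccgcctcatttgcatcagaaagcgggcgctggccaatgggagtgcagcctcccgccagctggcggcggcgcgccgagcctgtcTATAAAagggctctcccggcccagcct
Cdkn1a: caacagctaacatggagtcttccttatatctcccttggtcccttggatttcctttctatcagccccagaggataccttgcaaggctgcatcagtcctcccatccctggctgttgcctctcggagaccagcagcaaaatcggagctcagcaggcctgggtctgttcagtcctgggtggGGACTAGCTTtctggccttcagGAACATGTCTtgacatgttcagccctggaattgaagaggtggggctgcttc

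Over all 32851 windows of the table, cut in the same way and read on both strands, TGACG was present in 17.8%, the p53 half-site in 7.13%, CACGTG in 6.02% and TATAAA in 12.4%. A full CRE, TGACGTCA, which contains TGACG on both strands, was present in 1.55%. Among the 10 genes it was found in the window of Plk2, at 62 to 55 bases upstream. Plk2 is the Polo-like kinase that did not pass the tests that follow. Gadd45b had CACGTG and TATAAA, like Gadd45g. Single p53 half-sites lay in the windows of Gadd45a, Mdm2 and Ccng1 and in that of the downstream start of Sesn1, which also held TGACG. The heat-shock pair GAANNTTC (6.69% of windows) and the AP-1 site TGANTCA (6.75%) were in none of the 11 windows of the 9 genes. A letter match is a description and does not show binding, and elements outside these bases were not examined.

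The first comparison asked how these genes respond to 4 h of cold in wild-type brown fat. Cdkn1a, Plk3, Gadd45g and Mdm2 rose, by between 1.51-fold and 5.44-fold, and none of the 10 fell. In all, 4 of the 10 passed, where 27.6% of the 12486 genes tested did. All 4 were rises, made by 14.3% of the tested genes, while falls were 0 of 10 against 13.3%. The members and the gene lists used further on were chosen with earlier results of these data known. Their shares beside those of all tested genes are therefore descriptions and not tests. Throughout, "rose" and "fell" stand for an adjusted p below 0.05 from edgeR's quasi-likelihood test, with group and sex in the model and Benjamini-Hochberg adjustment over all tested genes. In whole tissue, more RNA per cell and more cells of a type that holds the RNA cannot be told apart. The summed level of 20 proliferation markers was 26.6 to 34.4 CPM in wild types at 22 °C and 23.3 to 28.8 CPM at 6 °C.

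Plk3, a kinase switched on by stress, moved most. The wild types at 22 °C held 4.13, 12.1, 4.48 and 3.38 CPM (replicates 1 to 4), and those at 6 °C held 41.4, 26.2, 31.6, 23.8 and 29.5 CPM (replicates 1 to 5). Every library at 6 °C lay above every library at 22 °C, the highest of which was replicate 2. The log2 change was 2.44 ± 0.46 (SE, adjusted p = 0.00111, a 5.44-fold rise), and without that replicate it was 2.94 (adjusted p = 0.000506). Plk3 overlaps exons of Tctex1d4 on the other strand, which averaged 0.00856 CPM. Cdkn1a and Gadd45a also overlap exons on the other strand, of AC167363.2 and E230016M11Rik, and how many of their reads come from those genes is not known from the count table.

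Cdkn1a, the inhibitor p21 of the cyclin-dependent kinases, was the most abundant gene that rose. It stood at 28.1, 103, 72.0 and 86.4 CPM in wild types at 22 °C and at 272, 235, 248, 223 and 213 CPM at 6 °C. The groups did not overlap, and the lowest library was replicate 1 at 22 °C. The log2 change was 1.76 ± 0.31 (adjusted p = 0.000649, 3.38-fold), and the relative spread at 22 °C was 44.4% of the mean against 9.63% at 6 °C.

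Gadd45g encodes a small acidic protein that binds and activates the kinase MAP3K4 upstream of p38 and JNK. Its levels were 17.4, 25.5, 24.0 and 22.6 CPM at 22 °C and 51.9, 48.1, 35.9, 50.01 and 44.6 CPM at 6 °C in wild types. The groups did not overlap, and the log2 change was 1.03 ± 0.23 (adjusted p = 0.0034, 2.04-fold). Mdm2, the p53 ligase, went from 19.1, 26.2, 23.0 and 22.8 CPM to 34.8, 33.0, 43.2, 29.8 and 29.6 CPM. Its rise was the smallest of the 4 (0.59 ± 0.12 log2, adjusted p = 0.00174, 1.51-fold), again with no overlap.

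The other 6 genes did not pass in wild type. Sesn1, a leucine-sensing sestrin that restrains mTORC1 through the GATOR2 complex, stood at 7.88, 7.88, 9.28 and 9.49 CPM at 22 °C and 5.10, 6.07, 6.48, 8.23 and 6.54 CPM at 6 °C. Its ranges overlapped through replicate 4 at 6 °C, and its log2 value was -0.42 ± 0.18 (adjusted p = 0.0935). It passed in 5 of 30 alternatives, among them scaling to total counts (-0.61, adjusted p = 0.0247). Gadd45a, the p53-responsive sister of Gadd45g, had a value of -0.71 ± 0.33 (adjusted p = 0.112) and passed in 4 of 30 alternatives. Ccng1, the cyclin G1 that brings a phosphatase to Mdm2, was at 204 ± 17.1 and 211 ± 34.1 CPM (0.05 ± 0.15 log2, 95% interval -0.26 to 0.37). Plk2, a kinase of centriole duplication and of synapses, was at 4.58 ± 1.21 and 4.56 ± 0.56 CPM (-0.03 ± 0.22 log2, 95% interval -0.50 to 0.44). The growth factor-responsive transcription factor Myc (0.10 ± 0.32, 95% interval -0.58 to 0.77) and the stress gene Gadd45b (0.43 ± 0.49, 95% interval -0.59 to 1.45) were at most 2.54 CPM in every wild-type library, and their intervals are wide.

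In knockouts the cold response was tested within the same fit. There too 4 genes, Plk3, Gadd45g, Cdkn1a and Mdm2, rose, and Sesn1 fell. So 5 of the 10 passed, against 21.6% of the 12486 tested genes, with 4 rises against 11.6% and 1 fall against 10.0%. The summed proliferation markers were 26.8 to 32.8 CPM in knockouts at 22 °C and 23.8 to 29.9 CPM at 6 °C.

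Plk3 stood at 2.33, 2.92, 4.13 and 0.87 CPM in knockouts at 22 °C and at 33.7, 18.5, 13.9 and 65.9 CPM at 6 °C. The groups did not overlap, and the spread in the cold was wide, with replicate 4 the highest and an SD of 71.2% of the mean. The log2 change was 3.69 ± 0.51 (adjusted p = 0.000124, 12.9-fold), and without replicate 4 at 6 °C it was 3.17 (adjusted p = 0.000279). Gadd45g went from 19.9, 9.65, 12.7 and 8.20 CPM to 55.2, 64.9, 30.2 and 54.0 CPM. All libraries at 6 °C were above all at 22 °C, although replicate 1 at 22 °C and replicate 3 at 6 °C came nearest to each other. The log2 change was 2.04 ± 0.25 (adjusted p = 5.55e-05, 4.10-fold).

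Cdkn1a went from 67.7, 33.7, 95 and 100.2 CPM to 239, 293, 291 and 203 CPM, without overlap (1.79 ± 0.32 log2, adjusted p = 0.000865, 3.46-fold). Mdm2 went from 19.0, 22.6, 21.7 and 21.8 CPM to 35.2, 34.5, 41.3 and 33.0 CPM, also without overlap (0.76 ± 0.13 log2, adjusted p = 0.000492, 1.69-fold). Sesn1 fell from 12.7, 7.92, 10.8 and 11.03 CPM to 5.35, 7.31, 4.31 and 3.64 CPM. Its groups did not overlap, and the change was -1.04 ± 0.19 log2 (adjusted p = 0.00117, 2.05-fold lower). The values of Ccng1 (-0.02 ± 0.16), Plk2 (-0.27 ± 0.24), Gadd45a (-0.34 ± 0.36), Gadd45b (-0.39 ± 0.48) and Myc (-0.45 ± 0.34) did not pass. Gadd45b was at 3.75 CPM in replicate 4 at 22 °C and at 0.34 to 0.95 CPM in the other 3 mice of that group.

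**Figure D2:**
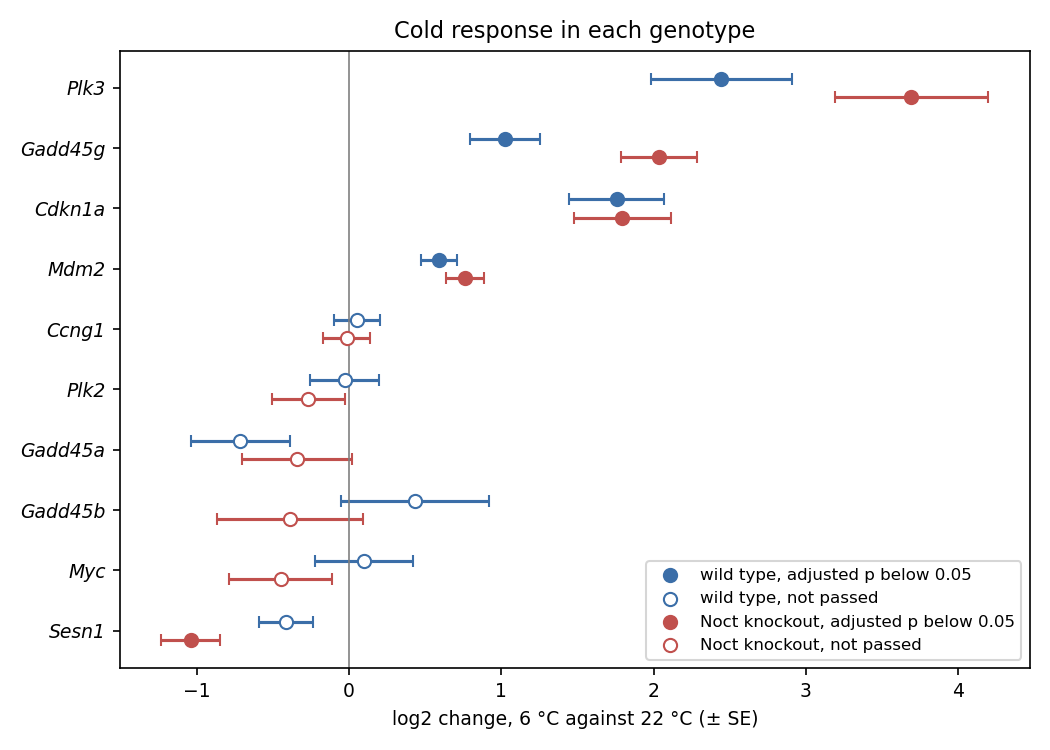
Log2 change from 22 °C to 6 °C with its SE for each gene, in wild types and in Noct knockouts, from the edgeR fit to all 17 libraries. Filled points passed an adjusted p of 0.05. Plk3, Gadd45g, Cdkn1a and Mdm2 are filled on the right in both genotypes, and Sesn1 is filled on the left in knockouts.

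**Figure D3:**
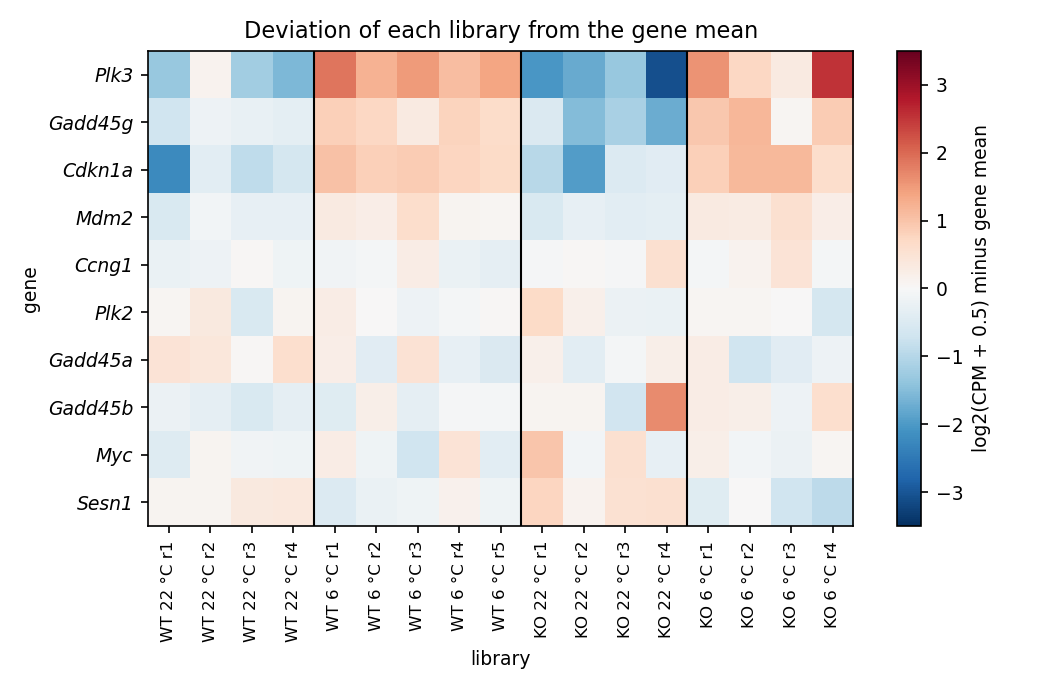
Each library's log2(CPM + 0.5) minus the gene's mean over the 17 libraries, with groups parted by black lines, r being the replicate. The 4 genes in the top rows are low at 22 °C and high at 6 °C, with wild-type 22 °C replicate 2 near the mean of Plk3 and knockout 6 °C replicate 4 the highest for Plk3.

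The second question was whether loss of Noct changes these genes. No member passed at 22 °C or at 6 °C in edgeR, where 0.0160% and 0.0400% of the 12486 genes were called, nor by the DESeq2 Wald test or limma-trend. At 22 °C, 4 members had an unadjusted p below 0.05, as had 3.89% of all genes, and at 6 °C 0 of 10 had, against 3.15%. The lowest of these p values at 22 °C was that of Gadd45g (0.00686, adjusted p = 0.998), with 22.4 ± 3.55 CPM in wild types and 12.6 ± 5.21 CPM in knockouts (-0.76 ± 0.25 log2). Knockout replicate 1, at 19.9 CPM, lay within the wild-type range, and without it the value was -1.20. Plk3 read -1.36 ± 0.50 log2 at 22 °C (adjusted p = 0.998), and -0.60 without wild-type replicate 2. The remaining members with a low unadjusted p were Gadd45b (1.18 ± 0.54) and Myc (0.75 ± 0.34), both with overlapping groups. Gadd45b read 0.39 without knockout replicate 4, and Myc read 0.32 without knockout replicate 1 and 1.14 without wild-type replicate 2. Sex is unevenly spread over the genotypes and was a term of the model.

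Whether the 2 genotypes answered the cold differently was tested as an interaction, the knockout's log2 change less the wild type's. It passed for 0 of the 10 genes, as for 0.00801% of the 12486 tested genes, in edgeR, DESeq2 and limma-trend alike. Gadd45g and Sesn1 had an unadjusted p below 0.05, as had 2.48% of all genes. The difference for Gadd45g was 1.01 ± 0.33 log2 (95% interval 0.31 to 1.70, unadjusted p = 0.0069 in edgeR's quasi-likelihood test, adjusted p = 0.9997). For Sesn1 it was -0.62 ± 0.26 (95% interval -1.18 to -0.07, adjusted p = 0.9997), so its call in knockouts and not in wild types is not shown to be a difference between them. Plk3 had a wide interval (1.25 ± 0.64, 95% interval -0.10 to 2.60), and its value was 0.76 without wild-type 22 °C replicate 2 and 0.80 without knockout 6 °C replicate 4. The intervals for Cdkn1a (0.04 ± 0.43, -0.86 to 0.94) and Mdm2 (0.17 ± 0.17, -0.19 to 0.53) span 0. The genotype difference at 22 °C and the interaction share the libraries at 22 °C, so these values of Gadd45g are not separate evidence.

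Other genes of the p53 pathway moved in both directions in the cold. Of 26 tested genes out of 32 listed, 5 rose and 6 fell in wild types, and 6 rose and 6 fell in knockouts. In all 42.3% and 46.2% of the 26 passed, against 27.6% and 21.6% of all tested genes. Rises and falls over all tested genes were 14.3% and 13.3% in wild types, and 11.6% and 10.0% in knockouts. The list's median log2 change was -0.13 in wild types and -0.09 in knockouts, against -0.03 and -0.02 over all tested genes. Single libraries moved these counts: the rises in wild types were 3 without 22 °C replicate 1, and the falls were 5 in each genotype without wild-type 22 °C replicate 2. In knockouts the falls were 2 without 22 °C replicate 1, 2 or 3 or 6 °C replicate 2 and 3 without 6 °C replicate 3 or 4, and the rises were 3 without 22 °C replicate 1 or 2. Among the rises were Sesn2, the stress-inducible sestrin, at 0.99 ± 0.27 in wild types and 1.41 ± 0.28 in knockouts, and the mTORC1 inhibitor Ddit4 at 1.34 ± 0.40 and 1.44 ± 0.42. Sesn2 thus went from 16.4 ± 4.31 to 32.3 ± 6.44 CPM in wild types. Among the falls in wild types were the death genes Bbc3 (-1.59 ± 0.33) and Pidd1 (-1.40 ± 0.36) and the TNF receptor family gene Eda2r (-1.87 ± 0.47). Each was at most 1.61 CPM in every wild-type library. In knockouts Pidd1 (-1.32 ± 0.40, passing in 20 of 30 alternatives) and Bbc3 (-1.11 ± 0.35, passing in 22 of 30) fell as well, and Eda2r did not pass (-0.67). Gtse1, a p53 antagonist, rose there (1.85 ± 0.64, from a mean of 0.13 to a mean of 0.49 CPM) but passed in 11 of 26 alternatives. Trp53 itself, which encodes p53 and was named after its values had been seen, was at 5.84 ± 0.93 and 4.26 ± 0.74 CPM in wild types (-0.45 ± 0.17, adjusted p = 0.0506) and did not pass in knockouts (-0.17 ± 0.18).

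Among the other inhibitors of cyclin-dependent kinases, 3 of 4 tested fell and 0 rose in each genotype, where falls were 13.3% of all tested genes in wild types and 10.0% in knockouts. In wild types 1 fell without 6 °C replicate 2 or 5, and 2 fell without 22 °C replicate 2. Cdkn2c, the INK4 inhibitor p18, fell from 31.7 ± 9.13 to 12.54 ± 1.71 CPM in wild types (-1.34 ± 0.20, adjusted p = 0.000164) and by 0.91 on the log2 scale in knockouts. Cdkn2d, the inhibitor p19, fell by 0.83 in wild types (passing in 20 of 30 alternatives) and by 1.11 in knockouts. Cdkn1c, the inhibitor p57, fell in wild types (-0.45 ± 0.14), and Cdkn1b, the inhibitor p27, fell in knockouts (-0.74 ± 0.15). In wild types Cdkn1b read -0.32 ± 0.14 (adjusted p = 0.102). Cdkn2a and Cdkn2b, at 0 to 12 counts per library, were too low to be tested.

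Among 16 cyclins, kinases, pocket proteins and E2F transcription factors of the G1 phase, 1 rose and 5 fell in wild types. In knockouts 1 rose and 6 fell. The shares over all tested genes were rises of 14.3% and falls of 13.3% in wild types, and 11.6% and 10.0% in knockouts. The 1 rise was of the transcription factor gene E2f3 in both genotypes, by 0.55 ± 0.15 in wild types and 0.76 in knockouts. The falls in knockouts were 3 without 22 °C replicate 3 and 4 without wild-type 22 °C replicate 2. Over all alternatives the rises ran from 0 to 2 in wild types and from 1 to 2 in knockouts. Cdk6, a kinase that cyclin D activates and INK4 inhibitors block, fell from 24.2 ± 2.96 to 7.32 ± 1.5 CPM in wild types (-1.72 ± 0.15, adjusted p = 5.66e-06) and from 26.6 ± 3.00 to 8.84 ± 1.53 CPM in knockouts (-1.59 ± 0.16, adjusted p = 1.89e-05). Its groups did not overlap in either genotype. Cyclin D2 (Ccnd2) fell in wild types (-0.71 ± 0.20) and cyclin E2 (Ccne2) in knockouts (-1.24 ± 0.25). The remaining Polo-like kinases were scarce, with the mitotic kinase Plk1 at 0 to 14 counts per library and the centriole kinase Plk4 at 1.66 ± 0.18 and 1.07 ± 0.38 CPM in wild types (-0.61 ± 0.24, adjusted p = 0.0642). Of 20 proliferation markers, 13 were tested, of which 1 rose and 1 fell in wild types and 1 fell in knockouts. That fall was of the replication helicase subunit Mcm4 in both genotypes (-0.79 ± 0.18 and -0.96 ± 0.20). Of the 13, 15.4% passed in wild types and 7.69% in knockouts, against 27.6% and 21.6% of all tested genes.

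**Figure D4:**
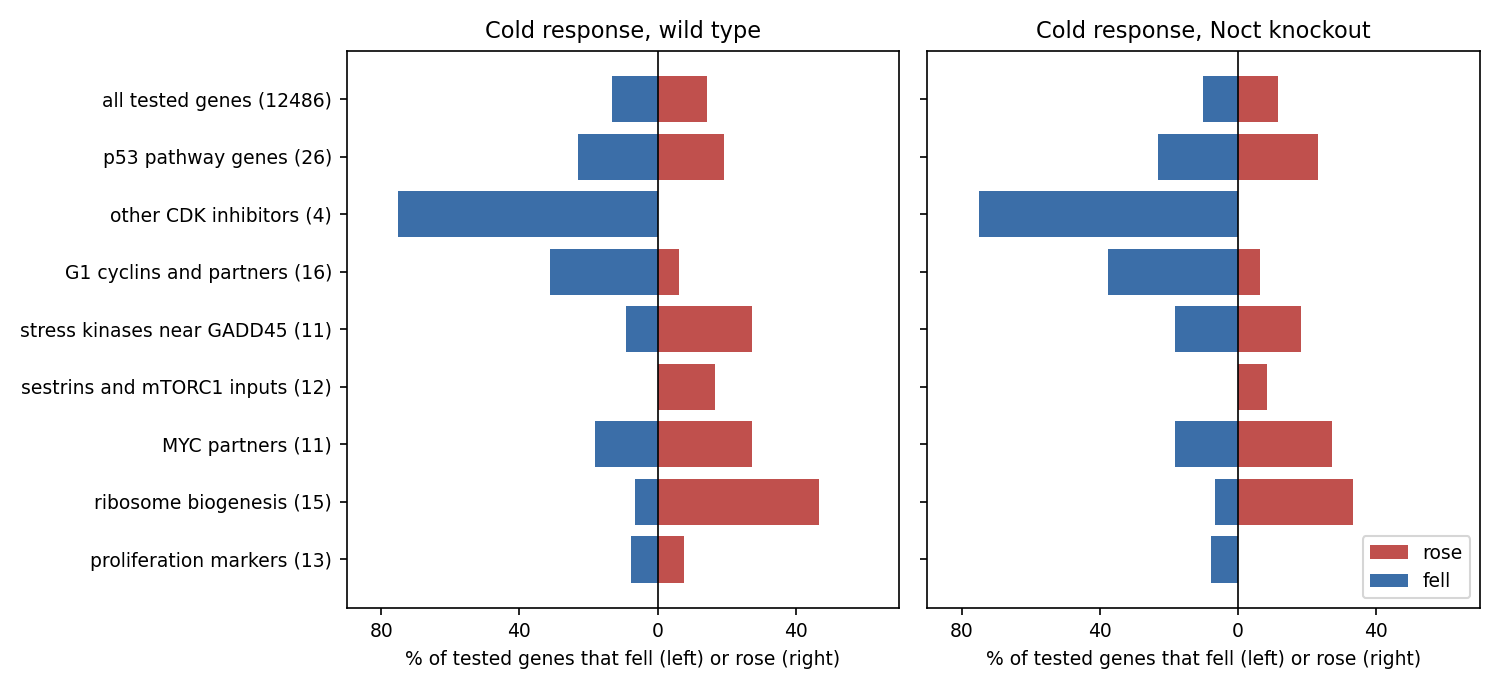
Share of the tested genes of each list that rose (right, red) or fell (left, blue) in the cold, in wild types and in Noct knockouts, with the number of tested genes in brackets. The top bar gives all 12486 tested genes, with rises of 14.3% and falls of 13.3% in wild types. The bar of the other CDK inhibitors reaches left only, at 3 of 4 tested genes in each genotype.

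Of 11 tested kinases of the pathway that Gadd45 proteins feed, 3 rose and 1 fell in wild types, and 2 rose and 2 fell in knockouts. Over all tested genes 14.3% rose and 13.3% fell in wild types, and 11.6% and 10.0% in knockouts, so counts this small are near the background. They ran from 1 to 3 in each direction over the alternatives. Map3k4, the direct partner of Gadd45 proteins, fell from 11.9 ± 1.79 to 6.42 ± 1.23 CPM in wild types (-0.88 ± 0.20) and by 0.83 on the log2 scale in knockouts. Map2k3, which activates p38, rose by 0.80 ± 0.15 in wild types and 0.62 ± 0.16 in knockouts. Mapk14, p38α itself, fell by 0.50 in knockouts and read -0.24 ± 0.14 in wild types (adjusted p = 0.211). Map2k4 rose by 0.36 ± 0.09 in wild types and 0.41 ± 0.10 in knockouts. Mapk8 rose by 0.54 ± 0.15 in wild types and read 0.43 ± 0.16 in knockouts (adjusted p = 0.0549). Around the sestrins, 2 of 12 tested genes rose in wild types (Sesn2 and the GATOR2 subunit Wdr59, at 0.32 ± 0.11) and 1 in knockouts, and 0 fell, which is also near those shares. Wdr59 passed in 18 of 30 alternatives.

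Myc did not pass, while several of its partners and textbook targets did. Of 11 tested partners and antagonists, 3 rose and 2 fell in each genotype. The matching shares of all tested genes were 14.3% and 13.3% in wild types, and 11.6% and 10.0% in knockouts. The list's falls were 1 in wild types without 22 °C replicate 3 or 4 or any 6 °C replicate. The same held in knockouts without 22 °C replicate 3. Mga, which competes for the shared partner Max, rose by 0.78 ± 0.17 in wild types and 0.64 ± 0.18 in knockouts. Max itself rose by 0.52 ± 0.11 in wild types and by 0.38 in knockouts, where it passed in 19 of 30 alternatives. The antagonist Mxd4 fell by 0.41 in wild types and by 0.43 in knockouts. Of 15 ribosome biogenesis and polyamine genes, 53.3% passed in wild types and 40% in knockouts, against 27.6% and 21.6% of all tested genes. In wild types 7 rose and 1 fell, and in knockouts 5 rose and 1 fell, with median log2 changes of 0.40 and 0.40. The rises were 5 in wild types and 7 in knockouts without wild-type 22 °C replicate 2, and 8 in knockouts without wild-type or knockout 6 °C replicate 4. Over all alternatives they ran from 3 to 8 and from 5 to 8. The nucleolar genes Gnl3 (1.06 ± 0.18 and 0.91 ± 0.19) and Nop58 (0.96 ± 0.18 and 1.09 ± 0.19) rose in both, and the pseudouridine synthase Dkc1 fell in both (-0.74 ± 0.10 and -0.79 ± 0.10).

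Markers of other cell types were read beside these changes. For comparison, 14.3% of all tested genes rose and 13.3% fell in wild types, and 11.6% and 10.0% in knockouts. The summed levels of 10 skeletal muscle genes spanned 28.7 to 678 CPM at 22 °C and 41.2 to 889 CPM in the cold in wild types, and from 52.6 to 857 and from 21.5 to 1113 CPM in knockouts, and 0 of the 10 passed. Of 8 macrophage markers 1 rose in each genotype, Cd163 (1.04 ± 0.21 and 0.99 ± 0.22), with sums of 53.6 to 76.0 and 51.9 to 76.3 CPM in wild types and 47.6 to 54.5 and 55.9 to 95.03 CPM in knockouts. Endothelial markers had 2 rises and 1 fall of 7 in each genotype, and their sums were 329 to 438 and 413 to 515 CPM in wild types and 393 to 442 and 376 to 551 CPM in knockouts. The 6 nerve markers summed to 85.6 to 120 and 140 to 168 CPM in wild types and 95.7 to 126 and 117 to 174 CPM in knockouts. Among them the myelin gene Pmp22 rose by 1.14 ± 0.18 and 1.31 ± 0.19. None of 6 fibroblast, 5 red cell or 2 tested lymphocyte markers passed, with fibroblast and red cell sums of at most 304 and 192 CPM. The 7 lymphocyte markers summed to 1.35 to 2.28 CPM in wild types at 22 °C and to 0.40 to 1.04 CPM in the cold, without overlap, and to 1.04 to 1.86 and 0.74 to 2.13 CPM in knockouts. No list had a marker at 0 in a whole group, and the part of other cells in the changes of the 10 genes was not tested.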

How the data were processed

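The deposited counts are whole-number reads per gene symbol, 1 library per mouse. The tools named in the submitters' processing notes are STAR and HTSeq, and the builds mm10 and GRCm38.p6. No source used here gives versions, annotation or strand setting, so reads of genes that overlap on opposite strands cannot be told apart. The authors' deposited RPKM values are these counts divided by the column total and by a gene length that did not differ between libraries (largest relative deviation 4.66e-14 over 12602 genes). They were used to compare levels between genes and in limma-trend alternatives, with pseudocounts of 1 and 0.1.

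The tests ran in edgeR 4.0.16 under R 4.3.3, on the deposited counts: filterByExpr with the 4 groups (12486 genes, all 10 members included), TMM scaling and 1 quasi-likelihood model of the 17 libraries with group means and labelled sex, leaving 12 residual degrees of freedom. P values were adjusted over all tested genes at 0.05. SE is the log2 change divided by the square root of the F statistic. Alternatives were other scalings, filters and covariates, DESeq2 1.42.0, limma 3.58.1, subsets of groups or of sex, and leaving out each library. The procedure was tested on simulated counts. Depth was 18410748 to 47598200 counts per library, and with no molecular identifiers counting error is a lower limit of the error.

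The members and gene lists were chosen with earlier results of these data known. Named genes are the members, Noct and, per list and cold comparison, up to 4 passing genes with the largest change or else up to 2 with the highest level, and the 3 nearest profiles of each member, and not every such gene is described. Gene positions and overlaps came from GENCODE vM21.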

Additional observations from a re-analysis of the deposited data

Results flagged for a closer look

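Each gene was examined for a library far from the rest of its group, by Dixon's ratio of the gap to the range on the log2(CPM + 0.5) scale. Of 40 combinations of gene and group 2 exceeded the critical value, and chance alone gives about 1 in 20. Plk2 was at 2.76 CPM in knockout 6 °C replicate 4, the mouse with the highest Plk3, against 4.53 to 4.76 CPM in the other mice of its group. Ccng1 was at 332 CPM in knockout 22 °C replicate 4, against 216 to 229 CPM in the others. That library also held the highest Gadd45b (3.75 CPM) and the lowest Plk3 (0.87 CPM) of all 17. Its mitochondrially encoded share, 57.3% of counts, was the highest as well. Knockout 6 °C replicate 3, with a share of 57.0%, held 311 CPM of Ccng1. Whether the share bears on these values was not tested.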

How the results depend on the processing

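The count of members called was 4 to 6 in wild types and 5 in knockouts over 30 alternatives each, with the 4 rises in each of them. It was 4 and 5 with the replicate block and sex, and 4 and 5 with the block alone. Same-numbered libraries' deviations from their group means correlated at -0.42 to 0.44. Values so few and of mixed sign cannot settle whether the numbers pair the mice. Leaving out 1 library in turn gave 4 to 5 and 5. The 2 further calls in wild types were falls of Gadd45a and Sesn1. Both were made by scaling to total counts (added after the data were seen), which gave all genes a median change of -0.20 log2 in place of -0.03. Both were also made by limma-trend with either pseudocount. The RPKM values used there are scaled to library totals too, so those calls are not separate evidence. The cause was not tested. No member passed for genotype or for the difference of responses in any alternative run. No called change of a member reversed or lost its call, and 84 of 1460 values changed sign, all of them without a call.

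Of all genes tested, the knockout cold response held 2697 calls, 1589 with only the groups compared and 1647 with the majority sex, which use fewer libraries. The genotype difference at 22 °C held 2 calls, 10 by DESeq2, 4 without sex or by limma-trend, 0 with the replicate block and sex or with only the groups compared, and 1 with the block alone. At 6 °C it held 5, 12 by DESeq2, and 3 with age, total counts, only the groups compared or limma-trend at 1. The p53 list gave 3 to 11 falls in wild types and 2 to 7 in knockouts over the alternatives. Low counts limit Gadd45a, Gadd45b and Myc.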

Other observations

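Genes whose profile over the 17 libraries lay nearest to that of a member were found by the root mean square distance between log2(CPM + 0.5) values, each gene centred on its own mean. The cold changes come from the same libraries. A neighbour's change in the direction of its member thus follows from how it was picked and is not separate evidence. Nearest to Cdkn1a was Tead1, a DNA-binding partner of the Hippo pathway coactivators (distance 0.27 log2), which rose by 1.62 ± 0.32 in wild types and 1.70 ± 0.33 in knockouts. The metalloprotease Adam12 (0.39) and the Hippo scaffold Sav1 (0.39) followed, and Sav1 rose by 1.94 ± 0.19 and 2.22 ± 0.19. Nearest to Plk3 were the cationic amino acid transporter Slc7a1 (0.53), the stress transcription factor Atf3 (0.55) and the amino acid transporter subunit Slc3a2 (0.57). Slc7a1 rose by 2.04 ± 0.44 and 2.59 ± 0.46, and Slc3a2 by 1.69 ± 0.24 and 2.25 ± 0.25.

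Nearest to Gadd45g were the cytochrome P450 gene Cyp4b1 (0.31), Fam117a (0.34) and the chemokine gene Ccl6 (0.35), and Cyp4b1 rose by 1.27 ± 0.26 and 1.61 ± 0.27. Nearest to Mdm2 was the zinc exporter gene Slc30a1 (0.09), which rose by 0.69 ± 0.11 and 0.66 ± 0.12. Nearest to Sesn1 were Tceanc (0.14), Nfatc2ip (0.19) and Syde2 (0.20), each of which fell in knockouts, by 0.94, 1.09 and 0.83 on the log2 scale. These distances are small for genes that vary little, so they rank genes for 1 member and are not compared between members.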
